A study of Drosophila melanogaster with 2 samples.

Results

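The 8 genes described here encode insulator and architectural proteins of Drosophila melanogaster, namely Chro, CTCF, su(Hw), Cp190, BEAF-32, mod(mdg4), M1BP and pita. They were found by symbol among the 13945 protein-coding genes of the BDGP6 annotation. The values around them come from chromatin immunoprecipitation and sequencing (ChIP-seq) of the transcription factor Single-minded (Sim). Sim was expressed as a fusion with enhanced green fluorescent protein (sim-eGFP) from a transgene in strain sim-GFP and precipitated with an antibody against the tag, per the labels' description; their antibody field names sim instead. The samples were whole embryos collected over 0 to 24 h, in 1 group of 2 biological replicates that share this genotype. No untreated or untagged group was analysed here, so no gain or loss of binding can be measured. Whole embryos mix all cell types, and a weak peak from many cells cannot be told apart from a strong peak in a few.

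Insulator proteins bind boundaries between chromosome domains, where they limit contacts between enhancers and promoters. CTCF, su(Hw), BEAF-32, M1BP and pita are DNA-binding proteins that recognise their own sequences. Cp190 and mod(mdg4) carry BTB domains and are recruited as cofactors, and Chro is a chromodomain protein of the decompacted interbands of polytene chromosomes. Sim is a bHLH-PAS factor that specifies midline cells in the developing nervous system of the embryo and binds DNA with its partner Tango. The lists record where the Sim fusion was found near the genes of these proteins, not where the insulator proteins themselves bind.

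A gene was said to have a peak when a summit, the highest point of a peak, lay within it or up to 5 kb either side. The genes were chosen by name with earlier results of these same peaks in view, so their counts and signal values are given as a description, with no test. In the optimal list, which is drawn from both replicates, 5 of the 8 genes had a peak, and all protein-coding genes together reached 30.0%. Those 5 were Chro, Cp190, mod(mdg4), BEAF-32 and M1BP, with 8 peaks among them. CTCF, su(Hw) and pita had none. The peaks spanned nearly the whole range of strength, from a signal value of 561 at Chro, rank 13 of 2682 peaks, down to 54.0 at BEAF-32, rank 2368. A signal value is the strength that the authors' peak caller gave a peak, and it serves here to order peaks within a list.

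The bases under the summits are shown for 3 of the peaks that lie between genes, each between the start sites of a pair of genes on opposite strands. Each run is read from the RefSeq copy of the Release 6 (dm6) genome, 5′ to 3′ on the minus strand, which is the strand of the named gene, with the summit in the middle. None of these 3 windows held any of the words searched, so they carry no capitals.
Cp190, chr3R:15275369-15275469: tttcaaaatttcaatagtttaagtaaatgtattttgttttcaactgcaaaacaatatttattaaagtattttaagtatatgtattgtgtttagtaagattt
mod(mdg4), on the tin side, chr3R:21378745-21378845: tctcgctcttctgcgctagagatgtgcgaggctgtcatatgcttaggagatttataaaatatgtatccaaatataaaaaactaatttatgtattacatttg
M1BP, chr3R:8731950-8732050: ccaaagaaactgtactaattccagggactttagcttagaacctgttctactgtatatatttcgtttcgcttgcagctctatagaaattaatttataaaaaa

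Among these, the Cp190 window had the lowest share of G and C. It held 17.8% G and C, and 1.57% of the 2682 optimal summits had a lower value. The mean over all optimal summits was 35.9% (SD 11.0, over peaks). The mod(mdg4) window on the tin side held 32.7% and the M1BP window 31.7%, both within 1 SD of that mean.

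At 2 further summits a word lay within 50 bp, and it is shown with 12 bases either side, in capitals. The 29 bases from the Chro 5′ UTR hold the reverse complement of CGATA, the core bound by BEAF-32. The 30 bases from inside mod(mdg4) lie in an intron of the gene itself and in the 5′ UTR of its precursor piece pre-mod(mdg4)-E, and hold TGCATA, a core bound by su(Hw), once on each strand in overlapping positions.
Chro, chr3L:22878880-22878908: ttagtttaaagcTATCGacaggcaataca
mod(mdg4), inside the gene, chr3R:21365419-21365448: ccaataccaaTATGCATAttttgctataat

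The nearest base of the word was 17 bp from the summit at Chro. In mod(mdg4) it was 40 bp from the summit for the copy that reads TGCATA as printed, and the overlapping copy lay slightly nearer. CGATA was present within 50 bp of 11.3% of all optimal summits, and TGCATA within 50 bp of 8.09%. Each word was thus found at 1 of the 8 summits of the insulator genes. The core of the CNS midline element that Sim and Tango bind, ACGTG, was found at 0 of the 8 summits in this window and at 7.27% of all optimal summits. The E-box CACGTG was also at 0 of 8, against 1.04% of all. None of the 8 held GAGAG (12.8% of all summits), the DRE core TATCGAT (1.86%), the motif 1 core TCACACT (1.90%) or the CTCF core AGGNGGC (2.61%). All words were read on both strands. TATCGAT contains the reverse complement of CGATA, and the E-box contains ACGTG. The absence of a word says only that these letters are not in this window.

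Chro, on chromosome arm 3L from 22873702 to 22878984 on the minus strand (FBgn0044324), had the strongest peak of the 8 genes. The optimal peak ran from 22878792 to 22879009 with its summit at 22878875, inside the 5′ UTR. Its signal value was 561 in the pooled data. It was 264 in replicate 1, rank 8 of the 1071 peaks of that replicate, and 300.2 in replicate 2, rank 16 of 1676. Both replicates therefore placed it among their strongest peaks, with summits 21 and 22 bp from the pooled one.

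The pooled summit lay between start sites. Chro has 3 annotated transcription start sites (TSS), and the summit was 107 bp upstream of the middle one and 109 bp downstream of the outermost. The summits of replicates 1 and 2 were 88 and 87 bp downstream of the outermost TSS. The opposite-strand gene Ssl1, a subunit of the general transcription factor TFIIH, starts 105 bp beyond the outermost Chro TSS, and its TSS was 214 bp from the pooled summit. The amino acid transporter gene slif was also within 5 kb. At 218 bp the peak was narrower than the 304 bp that 92.2% of optimal peaks share.

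Cp190 encodes the BTB and zinc finger cofactor that several insulator proteins recruit, and it lies on 3R from 15270432 to 15275241 on the minus strand (FBgn0000283). Its optimal peak ran from 15275267 to 15275570, with the summit at 15275419 and a signal value of 172, rank 251. The signal value was 73.8 in replicate 1, rank 278 of 1071, and 98.3 in replicate 2, rank 254 of 1676. Relative to the length of its list the peak thus ranked lower in each replicate than in the pooled list. The same held for the strongest peaks of Chro and mod(mdg4). The replicate lists are shorter, with 1071 and 1676 peaks beside 2682.

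The summit lay between genes, 178 bp upstream of the nearer Cp190 TSS and 103 bp from the TSS of CG4338, which starts on the opposite strand 281 bp away from that of Cp190. It was thus nearer to CG4338 than to Cp190, and the lists cannot assign it to either. The genes MRG15, Zip88E, Tm1 and l(3)neo43 were also within 5 kb.

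**Figure D1:**
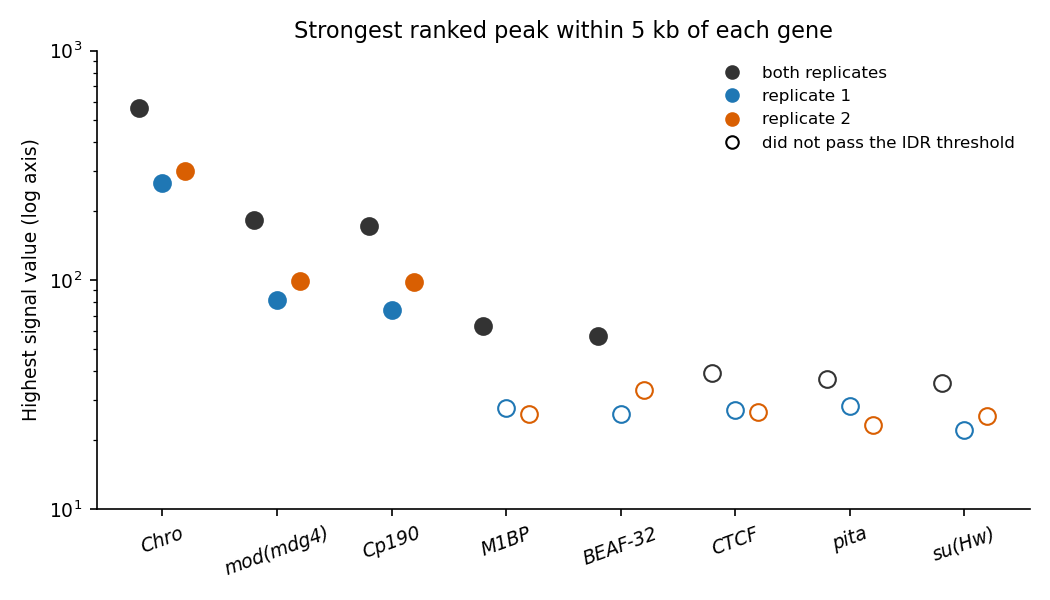
Highest signal value of any ranked peak within 5 kb of each gene (y axis, log scale, authors' peak caller units), for both replicates together and for each replicate. Filled points passed the IDR threshold; Chro, mod(mdg4) and Cp190 were filled in both replicates, M1BP and BEAF-32 with both replicates together alone, and CTCF, pita and su(Hw) in none.

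mod(mdg4) is a long gene on 3R, from 21350846 to 21377401 on the minus strand (FBgn0002781), whose many protein isoforms share their first exons and are completed by trans-splicing. At 26556 bp it was the longest of the 8 genes and had 3 of their 8 optimal peaks. The strongest, from 21378643 to 21378946 with its summit at 21378795, had a signal value of 183, rank 227. It was 81.6 in replicate 1, rank 224 of 1071, and 99.4 in replicate 2, rank 250 of 1676. Its values were close to those at Cp190 in the pooled data and in each replicate.

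This peak lay 1394 bp upstream of the mod(mdg4) TSS and 182 bp from the TSS of tin, a homeobox gene needed for heart formation on the opposite strand. Nearest to the mod(mdg4) TSS itself, a ranked peak 4 bp away had a signal value of 44.9 and a score of 398, below the lowest passing score of 830. The gene's own start site therefore carried no peak that passed the threshold.

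The other peaks of mod(mdg4) lay inside the gene. A peak from 21365324 to 21365627, summit 21365476, had a signal value of 84.1, rank 1090, and lay in an intron of mod(mdg4). The annotation places 23 separate precursor pieces of the trans-spliced transcripts in the gene, and this summit was 12 bp from a TSS of the piece pre-mod(mdg4)-E, inside the 5′ UTR of that piece. In replicate 2 it passed with a signal value of 48.9. In replicate 1 the same site reached 38.2 with a score of 788, and so missed the threshold by a small margin.

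The third peak, from 21372550 to 21372853 with its summit at 21372702 in coding sequence, had a signal value of 61.4, rank 1972. Neither replicate passed it alone, with 22.5 and a score of 108 in replicate 1, and 31.2 and a score of 664 in replicate 2. It passed in the optimal list with a score of 867 and did not in the conservative list, where it scored 770. Another site showed the converse. From 21376228 to 21376531, with its summit at 21376380 in an intron 1021 bp downstream of the TSS, it passed in the conservative list with a score of 871 and missed the optimal list with 805. In replicate 2 it passed with a signal value of 40.8, and in replicate 1 it reached 23.1 with a score of 39. Of the 4 sites at mod(mdg4), the one next to tin was thus the only one in all 4 thresholded lists.

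**Figure D2:**
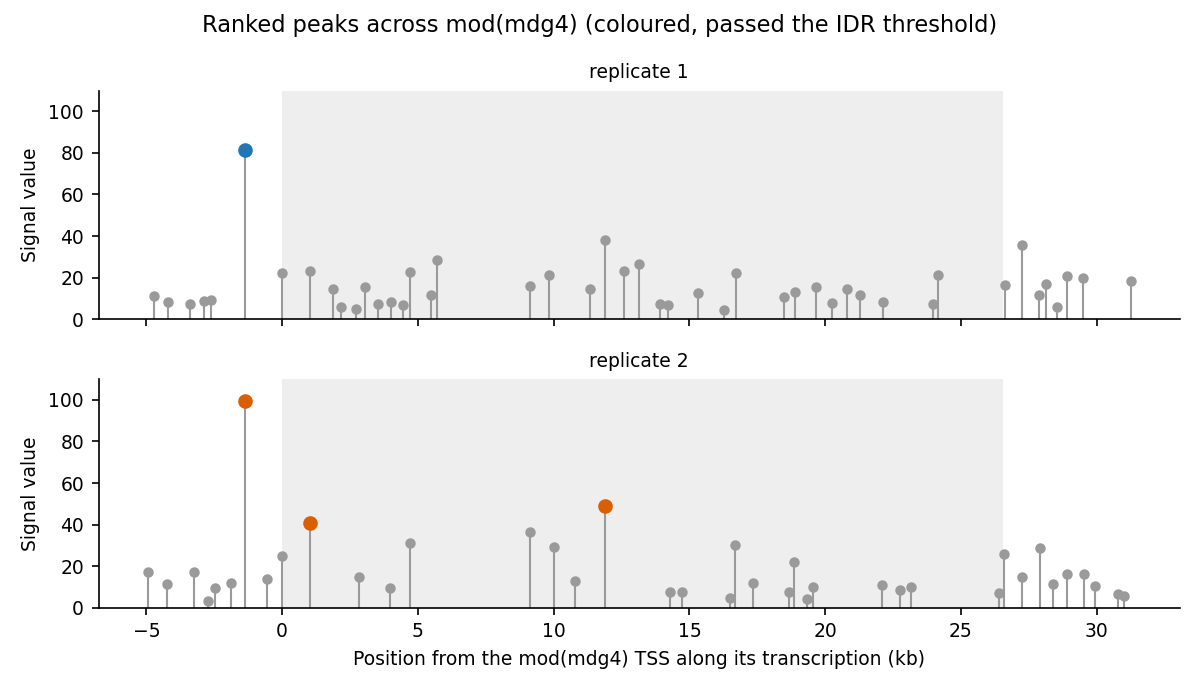
Signal value of every ranked peak across mod(mdg4) (y axis, linear scale, authors' peak caller units) against distance from its TSS in kb along transcription (x axis), for replicate 1 above and replicate 2 below. Grey shading marks the gene and coloured points passed the threshold; the peak upstream of the TSS passed in both replicates, and 2 peaks inside the gene passed in replicate 2 alone.

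M1BP, a zinc finger protein that binds motif 1 in promoters of broadly expressed genes, is encoded on 3R from 8729790 to 8731698 on the minus strand (FBgn0037621). Its optimal peak ran from 8731848 to 8732151, with the summit at 8732000, a signal value of 63.2, rank 1872, and a score of 904. The ranked lists gave 27.7 with a score of 137 in replicate 1 and 26.0 with a score of 550 in replicate 2, so neither replicate passed the site alone. The peak was also in the conservative list, with a score of 840. The summit was 302 bp upstream of the M1BP TSS and 91 bp from that of CG8202, which starts on the opposite strand, and ranshi, CG8159 and CG9801 were within 5 kb. Its strength placed it below the median signal value of the optimal list, 75.1.

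BEAF-32, the boundary element factor that binds CGATA clusters near promoters, lies on 2R from 14770469 to 14772630 on the plus strand (FBgn0015602) and had 2 weak optimal peaks. The first, from 14770172 to 14770475 with its summit at 14770324, had a signal value of 54.0, rank 2368, 145 bp upstream of the outermost BEAF-32 TSS. It scored 952 in the optimal comparison and 704 in the conservative one, where it did not pass. Replicate 1 gave 20.8 with a score of 400, and replicate 2 gave 33.2 with a score of 751. The genes Spred and kn were within 5 kb, and the TSS of Spred was 901 bp from the summit.

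The second BEAF-32 peak, from 14776875 to 14777178 with its summit at 14777027, had a signal value of 57.1, rank 2211, and lay in an intron of kn, which encodes a COE family transcription factor. Its values were 26.0 in replicate 1 and 27.9 in replicate 2, with scores of 263 and 276, so neither replicate passed it. It was 4397 bp past the end of BEAF-32, the farthest of the 8 peaks from its gene and the one nearest to the limit of 5 kb.

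**Figure D3:**
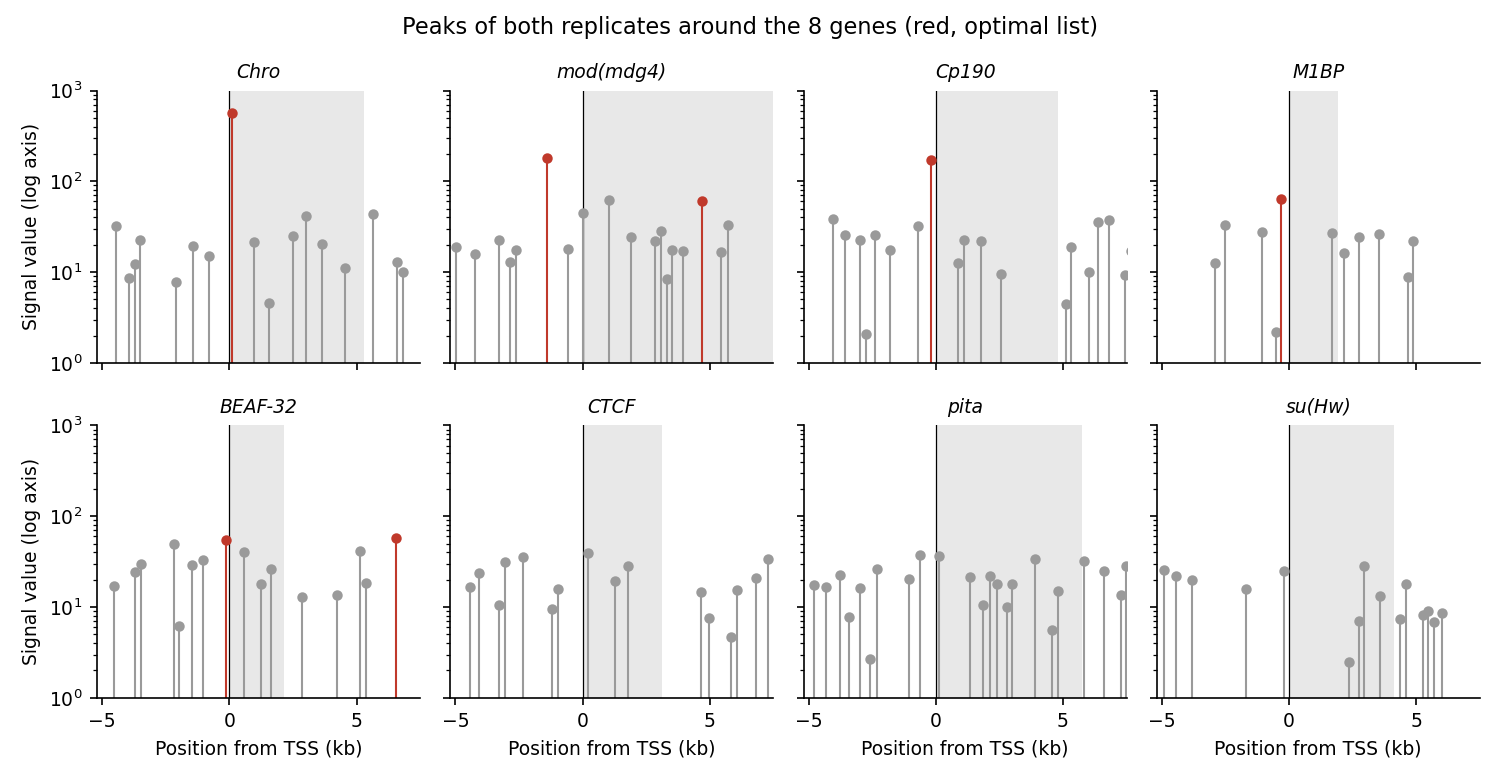
Signal value of each peak ranked from both replicates (y axis, log scale, authors' peak caller units) against distance in kb from the outermost TSS of each of the 8 genes (x axis, positive along transcription). Grey shading marks the gene and red points are in the optimal list. The panels of CTCF, pita and su(Hw) hold no red point. Ranked peaks beyond the right edge are not drawn. Among them are the mod(mdg4) intron peak and the strongest su(Hw) peak, 8451 bp from its TSS, with further peaks of mod(mdg4), su(Hw), Chro, Cp190 and pita.

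CTCF encodes the zinc finger protein that marks domain boundaries from flies to mammals, on 3L from 7353578 to 7356713 on the minus strand (FBgn0035769). No peak within 5 kb passed in any of the 4 thresholded lists. Its strongest ranked peak from both replicates, 228 bp from the TSS, had a signal value of 39.1 and a score of 248. Within 5 kb the strongest ranked peaks of the replicates had signal values of 27.0 and 26.5, at different sites. That of replicate 1 was 236 bp from the TSS and that of replicate 2 was 3208 bp from it. Near the TSS replicate 2 had a signal value of 7.40. The nearest optimal summit lay 5207 bp from the gene, just outside the limit, with a signal value of 63.7 and qm as the gene with the nearest TSS.

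su(Hw), the zinc finger protein of the gypsy insulator, is encoded on 3R from 14304455 to 14308589 on the minus strand (FBgn0003567). Its strongest ranked peak within 5 kb, 8451 bp from its TSS, had a signal value of 35.4 and a score of 68. The strongest of replicate 2, 25.5, lay at that site, 8422 bp from the TSS. That of replicate 1, 22.2, lay on the other side of the gene, 4909 bp from the TSS. At the pooled site replicate 1 had a signal value of 8.91. The ranked peak near the su(Hw) TSS had a score of 130 with both replicates together, the highest at this gene in that list. The nearest optimal summit lay 5430 bp away, also just outside the limit, with a signal value of 57.6 and red as the gene with the nearest TSS.

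pita encodes a zinc finger protein of boundaries in the bithorax complex and lies on 2R from 23548967 to 23554712 on the minus strand (FBgn0034878). Its strongest ranked peak, 610 bp from a pita TSS, had a signal value of 37.1 and a score of 514. The strongest ranked peak of replicate 2 within 5 kb, 23.4, lay near that site, 669 bp from a pita TSS. That of replicate 1, 28.2, lay at another site, 743 bp from a pita TSS and 3904 bp downstream of the outermost one. The replicate 1 peak nearest to the pooled site had a signal value of 13.6. The nearest optimal summit was 10052 bp from the gene, near apt, with a signal value of 69.6. In order of their strongest pooled peak, the 8 genes were Chro, mod(mdg4), Cp190, M1BP, BEAF-32, CTCF, pita and su(Hw). The replicates placed Chro first and Cp190 and mod(mdg4) above the remaining 5 genes. They ordered those 5 differently, with values from 22.2 to 28.2 in replicate 1 and from 23.4 to 33.2 in replicate 2. Every gene of the 8 had some ranked peak within 5 kb, as did 97.6% of all genes in the ranked list of both replicates.

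**Figure D4:**
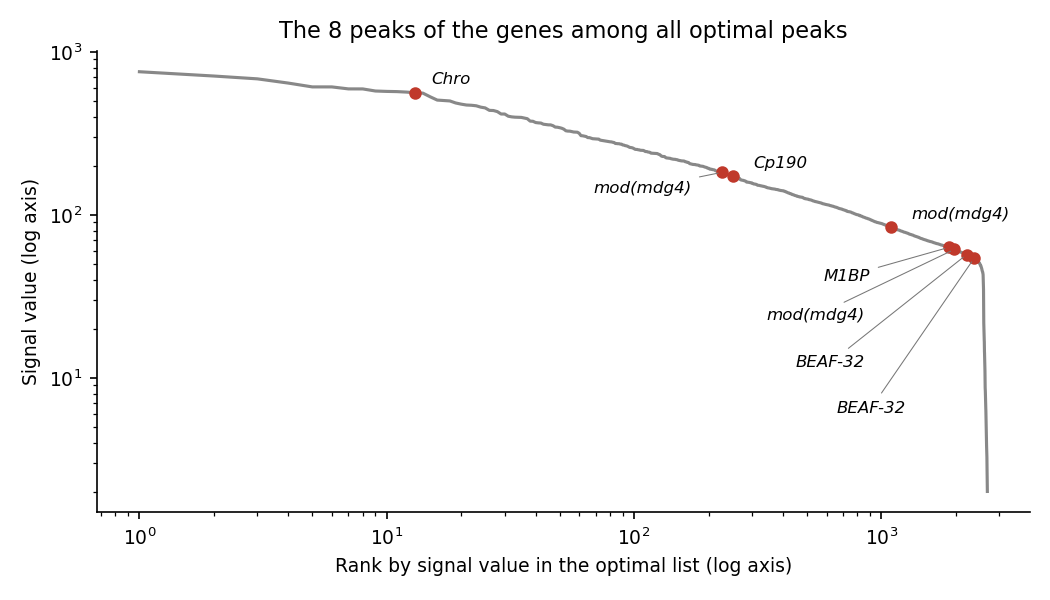
Signal value (y axis, log scale, authors' peak caller units) against rank (x axis, log scale) for the 2682 optimal peaks, shown as a line, with the 8 peaks of the insulator genes as red points. Chro is at rank 13, mod(mdg4) and Cp190 at ranks 227 and 251, and the remaining 5 between rank 1090 and rank 2368.

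The 8 genes were also counted in each list. The conservative list gave a peak at 5 of 8 genes, beside 27.8% of all protein-coding genes, and they were the same 5. The sites were not all the same. At BEAF-32 only the peak in the kn intron was in that list, with a score of 849, and the one at its TSS was not. Replicate 1 alone gave a peak at 3 of 8, beside 15.0%, and replicate 2 alone at 3 of 8, beside 21.9%. Those 3 were Chro, Cp190 and mod(mdg4) in both replicates. The strongest optimal peak overlapped a peak of both replicate lists at these same 3 genes, of the 5 with a peak. Among all genes with an optimal peak that share was 40.9%.

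A summit within 500 bp of an own TSS was found at 4 of the 8 genes, namely Chro, Cp190, BEAF-32 and M1BP, beside 9.37% of all protein-coding genes. Gene length moves with the other count, that of genes with a peak within 5 kb. The median length was 4472.5 bp for the 8 genes and 2166 bp for all. Of genes under 3 kb 24.7% had an optimal peak, of genes from 3 to 10 kb 32.8% and of genes of 10 kb and over 48.9%. The part of length in the count of genes with a peak within 5 kb, 5 of the 8, was not tested.

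The genes were also described by their upstream neighbours. A gene on the opposite strand started within 1 kb upstream of 4 of the 8 genes, as it did for 35.2% of all protein-coding genes, and nothing is read from a share this near the background. These 4 were Chro, Cp190 and M1BP, which had a peak between or beside the paired start sites, and su(Hw), whose partner Polr2I, a subunit of RNA polymerase II, starts 500 bp away and which had no peak. BEAF-32 had a peak at its TSS with its upstream neighbour Spred 1046 bp away. The nearest opposite-strand start sites upstream of CTCF (Sec63) and of mod(mdg4) (tin) were 3848 and 1576 bp away, and that of pita (ItgaPS5) was 1960 bp away.

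Bases before the start sites are shown for the gene with the strongest peak and for CTCF and mod(mdg4), which held the DRE core, with TATCGAT and CGATA in capitals on either strand. Each run is the 100 bases upstream of the outermost TSS on the minus strand, the strand of the gene.
Chro, chr3L:22878985-22879084: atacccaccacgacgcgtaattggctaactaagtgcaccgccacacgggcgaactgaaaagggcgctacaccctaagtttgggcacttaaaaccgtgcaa
CTCF, chr3L:7356714-7356813: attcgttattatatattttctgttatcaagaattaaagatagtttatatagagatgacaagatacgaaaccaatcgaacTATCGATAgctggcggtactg
mod(mdg4), chr3R:21377402-21377501: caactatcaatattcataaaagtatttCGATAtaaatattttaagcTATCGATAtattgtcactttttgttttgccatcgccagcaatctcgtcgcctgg

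TATCGAT, the core bound by Dref at promoters of growth and housekeeping genes, was present in these 100 bases at CTCF, mod(mdg4) and pita, and at 12.2% of all protein-coding genes. The Chro window held none of the words. CGATA was present at those 3 genes and at Cp190, and at 28.3% of all genes. The genes with TATCGAT before their start were thus 3 of the 4 without an optimal summit within 500 bp of an own TSS, and none of the 4 with one. Over all protein-coding genes the word did not divide this way, since it was present at 13.6% of the 1306 genes with such a summit and at 12.1% of the 12639 without. At BEAF-32, which had such a summit, TATCGAT lay within 100 bp of the summit but outside these bases. No test of this was made. ACGTG was present in 0 of the 8 windows and in 7.16% of all, TCACACT in 0 and 3.53%, and AGGNGGC in 0 and 3.24%.

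Other genes of chromosome architecture were counted by the same rule. Of 17 genes for further insulator proteins, their partners and promoter factors, 5 had an optimal peak, close to the 30.0% of all genes. Trl, the GAGA factor, had the strongest, with a signal value of 327, rank 54, in an intron. JIL-1, a histone kinase that associates with Chro, had a peak of 252, rank 102, also in an intron. Both were overlapped by peaks of both replicates. Dref followed with 113, 119 bp from its own TSS and nearer to that of RpL13. Top2, a topoisomerase, had 90.1, 8591 bp from its nearest own TSS and nearer to that of RanGAP. The peak at pzg had 70.8, 72 bp from its own TSS and nearer to that of CG12974. Neither the Top2 peak nor the pzg peak was overlapped by peaks of both replicates. The remaining 12, Clamp, Elba1, Elba2, Elba3, Ibf1, Ibf2, Rm62, ZIPIC, dwg, fs(1)h, insv and l(3)mbt, had none.

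Of 12 genes for cohesin and condensin, the ring complexes that hold and fold chromosomes, 2 had an optimal peak, beside 30.0% of all genes. The 2 were SMC2, with a signal value of 74.3 and its summit nearer to the TSS of Ercc1, and Cap-H2, with 57.8. Neither was overlapped by peaks of both replicates. For scale, sim itself, the targeted gene, had 4 optimal peaks, the strongest with a signal value of 212, rank 161, which is weaker than the peak at Chro and stronger than those at mod(mdg4) and Cp190.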

How the data were processed

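Sim ChIP-seq peak lists came from 2 biological replicates of 1 group, and chromatin was sonicated to a stated 200 to 800 bp. The authors deposited 8 lists in dm6 coordinates, ranked or thresholded by the irreproducible discovery rate (IDR), for each replicate and for both together. The deposited score is the scaled IDR, capped at 1000, and the lowest score in the thresholded lists, 830, is an IDR of 0.01. The signal value and the −log10 q-value are those of the authors' peak caller. They are in no unit that links lists, so values order peaks within a list. Which aligner and caller made them is not stated in the labels or headers. Read depth is unknown, so no interval is given. The series' ranked lists hold 8 further per-sample columns, not used here.

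Genes and start sites of protein-coding transcripts came from Ensembl release 115, and sequence from RefSeq's Release 6 genome. Of 13945 genes, 13944 had identical coordinates in both annotations, and 0 peaks lay beyond an arm's end. SA was matched as SA1. The precursor pieces of mod(mdg4) were left out when the nearest TSS and the feature at a summit were named, and were kept in the count by nearest TSS unless stated. Counting was tested on simulated data, where it recovered every planted gene. Python 3.11.15, numpy 2.4.6, pandas 2.3.3, scipy 1.17.1 and matplotlib 3.10.9 were used.

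The 8 genes, the further lists, the words and the windows were chosen with earlier results of these data known. All 8 genes are named, with the genes within 5 kb of their summits and the 5 strongest of each further list. No statistical test was possible, with 1 group and no control libraries analysed here. Alternatives were the other lists, each replicate alone, the upper part of the optimal list by signal value, other windows, assignment to the nearest TSS and ranking by −log10 q. No sequence of BEAF-32 or pita is reported here.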

Additional observations from a re-analysis of the deposited data

How the results depend on the processing

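The count of 5 genes with a peak was the same in the conservative list and with 1 kb either side of the gene, and rose to 7 with 10 kb, where CTCF and su(Hw) were added. It was 3 to 3 when either replicate was left out, 3 in the stronger part of the optimal list, and 2 when each summit went to the nearest TSS alone with the precursor pieces of mod(mdg4) counted as other genes. With those pieces left out, an alternative chosen after seeing the data, it was 3. The 8 peaks became 3 to 5 without a replicate, 4 in the stronger part and, by the nearest TSS, 3 with the precursor pieces and 5 without. The 4 genes with a summit near an own TSS became 3 in the conservative list and 2 to 2 without a replicate. They became 2 in the stronger part and 0 within 100 bp. The 5 further architectural genes became 3 to 4 without a replicate and 2 by the nearest TSS, with or without the pieces. The 2 cohesin and condensin genes became 0 to 1 without a replicate, 0 in the stronger part, 1 by the nearest TSS, with or without the pieces, and 4 with 10 kb. In all, 23 alternatives moved such a count by over 1.5 times and 19 did not. Fewer peaks in the stronger part and in the replicate lists lower the counts by construction, and a wider window can only raise them. For the other windows, the stronger part, the nearest TSS and the alternative counts near an own TSS, no share of all protein-coding genes is given here. Those counts therefore have no background beside them, and nothing is read from them. Ranks by −log10 q tied Chro, Cp190 and mod(mdg4) at the top of the list, where their strongest peaks had 2.12. At M1BP the −log10 q was 0.918, and at BEAF-32 it was 0.664 and 0.558, so these 2 genes rest on peaks with a weak q-value. The alternatives for ranks and words were marked by limits other than 1.5 times, and 15 moved a value while 17 did not. Small changes could count as moved, such as from 82.4% to 85.3% for the rank at BEAF-32 in the conservative list. Within 100 bp of the 8 summits GAGAG and TATCGAT were at 1 each and CGATA and TGCATA at 2 each, and within 25 bp TGCATA was at 0. No paired analysis was possible because there is 1 group. Unknown depth limits what a missing peak means.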
